A study of Mus musculus with 9 samples.

Results

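The genes described here are 10 genes of the NRF2 pathway, which defends cells against oxidants and reactive aldehydes. They were chosen by name: Nfe2l2 and Keap1, which form the switch, and Slc7a11, Gclc, Gclm, Gsr, Txnrd1, Srxn1, Nqo1 and Abcc1, which it controls. All 10 were found among the 26770 genes of the expression table, each once and with an Ensembl identifier, and all 10 passed the filter on low counts. RNA sequencing was done on spleen-derived monocytes of wild-type (WT) mice, in 9 libraries that form 3 groups of 3. Untreated cells received the solvent DMSO, at a dilution given as 1 in 1000, 1001 and 1002 for replicates 1, 2 and 3. LPS cells received lipopolysaccharide, a bacterial membrane component that Toll-like receptor 4 detects, at 40 ng/ml for 5 hours. LPS with octanal cells were primed with low-dose LPS and then given octanal, an aldehyde ligand of the olfactory receptor Olfr2, at 20 µM. The time is given as 18, 19 and 20 hours for replicates 1, 2 and 3. These hours and the DMSO dilutions count up with the replicate number, and whether the replicates truly differed in them is not known. Replicates of a group were treated as alike. The libraries of the LPS with octanal group are called octanal libraries below. The labels give no LPS dose in ng/ml and no hours of LPS for the octanal group. Whether all groups had equal time in culture and equal solvent is not stated, so octanal, time, solvent and LPS exposure cannot be told apart. Separate animals or cultures are not stated for the replicates either. The p-values therefore cover the spread among these libraries, which may be technical.

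NRF2, the protein of Nfe2l2, is a transcription factor that is made all the time and destroyed all the time. KEAP1 holds it and passes it to a ubiquitin ligase. When oxidants or electrophiles such as reactive aldehydes modify the cysteines of KEAP1, NRF2 escapes, enters the nucleus, pairs with a small MAF protein and binds antioxidant response elements (AREs). Its activity is set mainly at the level of the protein, so the RNA of Nfe2l2 alone does not report it. In macrophages and monocytes NRF2 is known to be engaged during inflammatory activation and to restrain inflammatory genes.

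The promoters of the genes are shown for the letters that NRF2 and its relatives read. RefSeq promoter sequences on GRCm38.p6 were matched for 7 of the 10 genes, with 9 start sites in all, since Txnrd1 has 3. Gclc, Gsr and Abcc1 were not matched. In the 250 bases before each start site both strands were searched for the ARE core TGACNNNGC. After the sequences had been read, the MARE form TGAGNNNGC and TGATGNAA, the core of elements bound by ATF4 with C/EBP proteins, were added. Each was counted on its own, and no match of one overlapped a match of another. The 5 windows with a match follow, 5′ to 3′ on the strand of the gene, with every match in capitals.
Nfe2l2 (chr2:75704664-75704913, minus strand): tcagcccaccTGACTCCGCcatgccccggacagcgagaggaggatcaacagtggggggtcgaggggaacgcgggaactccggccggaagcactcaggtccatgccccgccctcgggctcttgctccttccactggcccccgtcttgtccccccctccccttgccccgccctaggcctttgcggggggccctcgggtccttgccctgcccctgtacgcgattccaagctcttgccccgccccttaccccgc
Gclm (chr3:122245307-122245556, plus strand): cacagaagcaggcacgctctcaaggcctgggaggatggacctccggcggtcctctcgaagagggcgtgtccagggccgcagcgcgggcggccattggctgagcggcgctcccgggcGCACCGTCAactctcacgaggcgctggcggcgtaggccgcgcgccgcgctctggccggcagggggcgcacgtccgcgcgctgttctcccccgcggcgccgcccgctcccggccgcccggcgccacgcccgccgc
Txnrd1, the start site whose window holds a match (chr10:82858956-82859205, plus strand): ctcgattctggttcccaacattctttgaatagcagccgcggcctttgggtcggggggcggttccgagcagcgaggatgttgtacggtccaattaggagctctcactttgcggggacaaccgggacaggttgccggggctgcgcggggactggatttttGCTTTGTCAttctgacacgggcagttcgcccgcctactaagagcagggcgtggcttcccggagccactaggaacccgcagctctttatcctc
Srxn1 (chr2:152105274-152105523, plus strand): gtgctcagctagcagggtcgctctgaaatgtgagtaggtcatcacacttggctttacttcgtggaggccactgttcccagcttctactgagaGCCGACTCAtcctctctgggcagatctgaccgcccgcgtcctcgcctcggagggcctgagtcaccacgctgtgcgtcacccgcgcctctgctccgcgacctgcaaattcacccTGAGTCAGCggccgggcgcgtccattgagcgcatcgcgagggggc
Slc7a11 (chr3:50443614-50443863, minus strand): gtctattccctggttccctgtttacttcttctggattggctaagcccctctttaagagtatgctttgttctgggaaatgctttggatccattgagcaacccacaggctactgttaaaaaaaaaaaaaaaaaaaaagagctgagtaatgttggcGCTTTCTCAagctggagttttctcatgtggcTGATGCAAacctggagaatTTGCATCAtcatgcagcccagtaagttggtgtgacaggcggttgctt
The ARE core stood in windows of 3 genes, Nfe2l2 (TGACTCCGC, 240 to 232 bases before the start), Gclm (TGACGGTGC on the opposite strand, 134 to 126 bases before) and Txnrd1 (TGACAAAGC on the opposite strand, 92 to 84 bases before). Of all 32841 promoter windows of this length, 10.2% held this core. The MARE form was found for Srxn1 at 2 places (TGAGTCGGC, opposite strand, and TGAGTCAGC) and for Slc7a11 at 1 (TGAGAAAGC, opposite strand), against 14.4% of all windows. Slc7a11 alone held TGATGNAA, with TGATGCAA once on each strand, and 3.45% of all windows held it. In the windows of Nqo1, Keap1 and the other start sites of Txnrd1 none of the 3 was found. These are matches of letters, not measured binding sites, and say nothing of elements farther away.

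The 10 genes were highest on average in the LPS with octanal group. The group means of all 10 were highest there, which was so for 19.5% of the 15447 genes tested. In 5 of them, Nfe2l2, Slc7a11, Gsr, Nqo1 and Abcc1, every LPS with octanal library lay above all 6 other libraries, against 2.24% of all genes tested. With values as CPM (a gene's count over the library's total, the total scaled by the TMM method), their summed level was 4085, 3139 and 4117 CPM in untreated, 3563, 4796 and 5203 in LPS, and 5733, 7628 and 7118 in LPS with octanal replicates 1, 2 and 3. Untreated and LPS libraries thus overlapped, and the octanal libraries lay above both. Gclc was almost a tie, with a mean of 310 CPM in LPS and in octanal libraries. In the deposited values scaled by gene length and depth, its mean was higher in LPS (88.8) than with octanal (83.1).

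**Figure D1:**
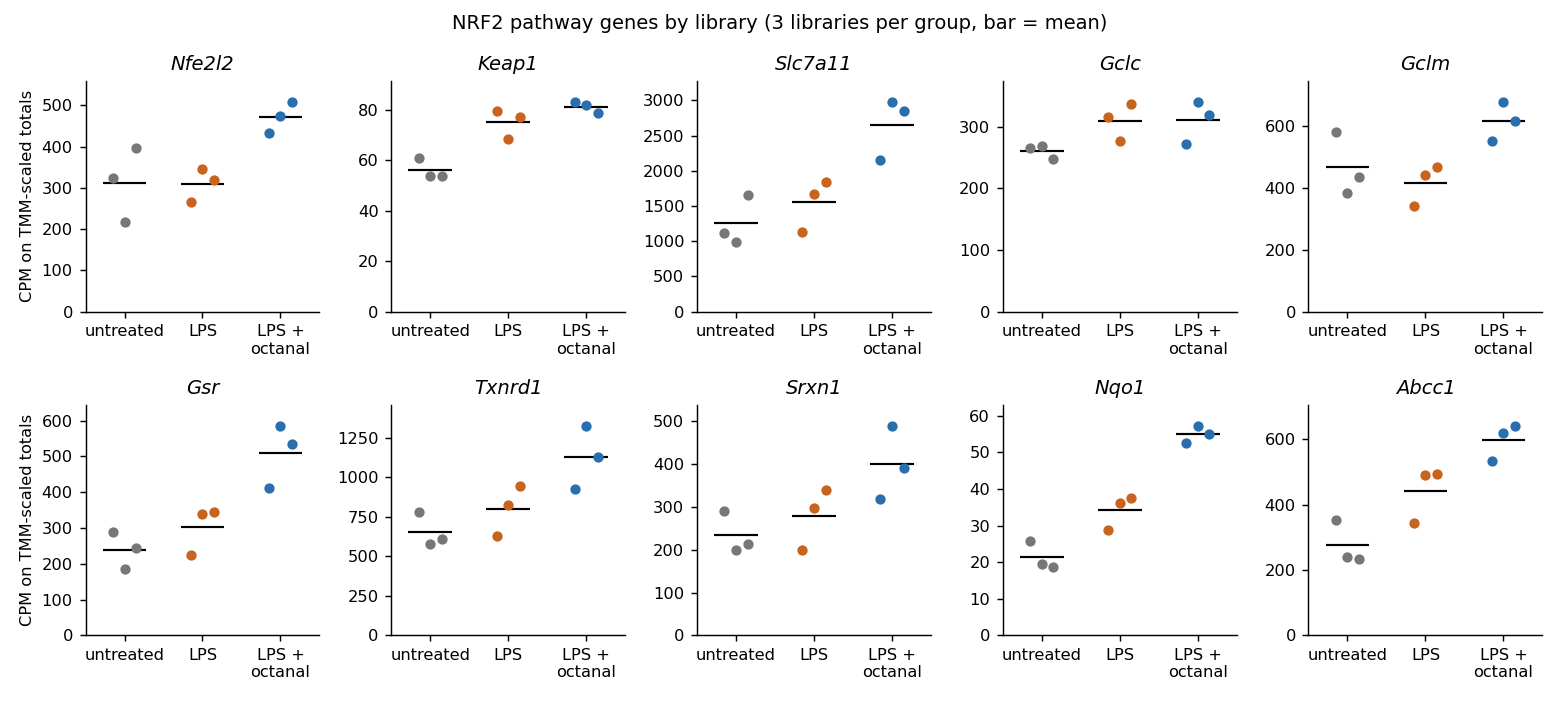
CPM on TMM-scaled totals (vertical axis, from 0) of each of the 10 genes across untreated, LPS and octanal libraries. Points are the 3 libraries of a group, from replicate 1 at the left to replicate 3, and bars are means; Nqo1 climbs from a mean of 21.3 through 34.2 to 55.0 CPM, while Gclc stays between 248 and 340 CPM.

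Total counts were 29594291 to 38388421 per library. Mitochondrial genes took 2.20 to 3.99% of counts in untreated, 4.12 to 7.66% in LPS and 2.31 to 3.10% in octanal libraries, so the LPS libraries lay above both other groups, and the part of this in the results was not tested. On a first principal component of log2 CPM, the untreated libraries scored -104 to -34.6, the LPS libraries 50.4 to 65.3 and the LPS with octanal libraries -2.73 to 23.7. The labelled cell type was checked against 13 classical monocyte markers, whose summed level was 8149 to 18229 CPM in untreated, 3105 to 4274 in LPS and 6335 to 9343 in octanal libraries. Itgam, Csf1r, Cd14 and Lyz2 were well above 100 CPM in every library. Ly6c2, the marker of classical monocytes, stood at 2.82 to 249 CPM in untreated, 0.387 to 7.90 in LPS and 0.625 to 1.01 in octanal libraries. Ccr2 stood at 4.65 to 30.1 CPM in untreated libraries and at 0.658 to 2.85 in both treated groups, so these defining markers were near 0 in the treated groups. They were not uniformly high in untreated libraries either, since the lowest Ly6c2 value there, 2.82 CPM, was below the highest in LPS, 7.90. Markers of other cells were present too. The 15 neutrophil markers summed to 13765 to 26939 CPM in untreated, 1888 to 2376 in LPS and 6008 to 13627 in octanal libraries. The 15 macrophage markers summed to 5041 to 8826, 890 to 1372 and 2340 to 3347 CPM, and the 12 T cell markers to 186 to 1165, 2176 to 2691 and 1248 to 1895 CPM, in the same order. In bulk samples such as these, fewer cells of a type and less RNA per cell cannot be told apart. The part of these differences in the results below was not tested.

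**Figure D2:**
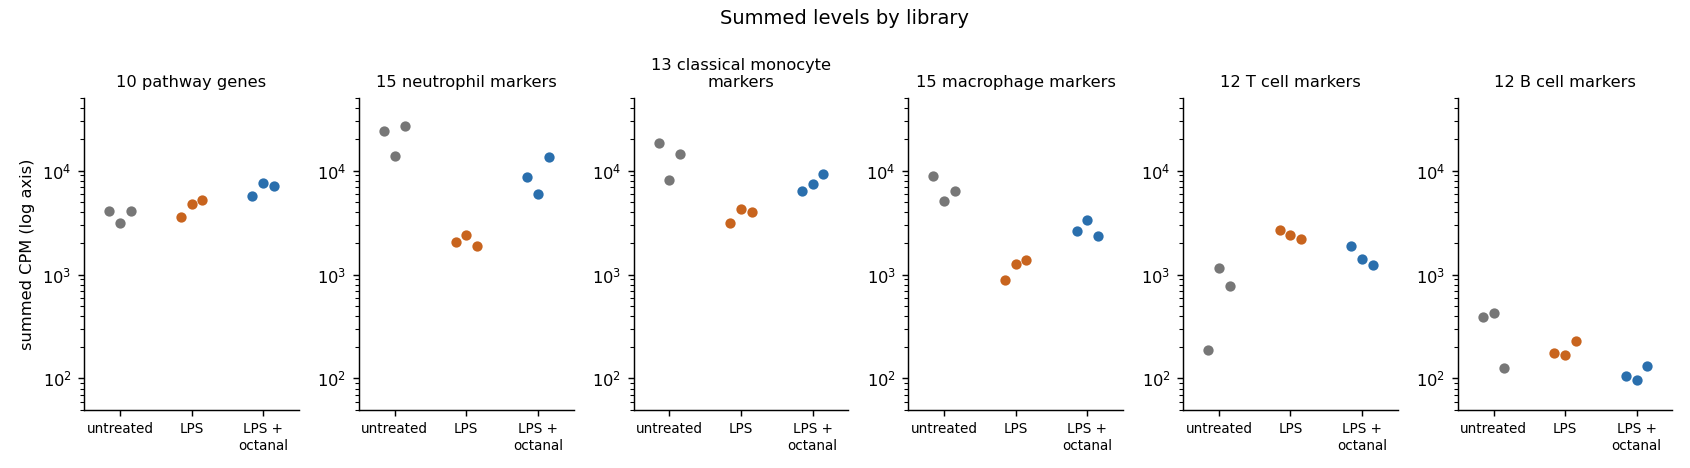
Summed CPM on a log axis of the 10 pathway genes and of 5 marker lists, 1 point per library (replicates 1 to 3 from left to right). The pathway genes span 3139 to 7628 CPM and are highest with octanal, whereas the summed neutrophil, monocyte and macrophage markers are lowest in LPS libraries and in between with octanal, although only 5 of 15 single macrophage markers were higher with octanal than with LPS.

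Nfe2l2 (ENSMUSG00000015839; GRCm38 chromosome 2, 75675513 to 75704641, minus strand, protein-coding) encodes NRF2 itself. It stood at 324, 217 and 396 CPM in untreated replicates 1, 2 and 3, at 265, 345 and 319 in the LPS and at 433, 474 and 508 in the octanal replicates. The LPS values lay within the untreated range, and the octanal values lay above both groups without overlap. LPS alone left it at -0.01 on the log2 scale (SE 0.206, with an adjusted p of 0.96). With octanal against LPS it was 0.61 (SE 0.207, unadjusted p = 0.017, adjusted p = 0.14) and against untreated 0.59 (SE 0.207, adjusted p = 0.11), so neither difference passed the test.

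Keap1 (ENSMUSG00000003308; chromosome 9, 21229730 to 21239361, minus strand, protein-coding) encodes the inhibitor that hands NRF2 to degradation. Its levels were 61.1, 53.8 and 53.9 CPM in untreated, 79.5, 68.6 and 77.4 in LPS and 83.2, 81.9 and 79.0 in octanal libraries. All 6 treated libraries were above all 3 untreated ones, and the treated groups overlapped. Keap1 rose with LPS by 0.42 on the log2 scale (SE 0.093, adjusted p = 0.012) and with LPS and octanal against untreated by 0.53 (SE 0.0931, adjusted p = 0.014). With octanal against LPS the difference was 0.11 (SE 0.0927, adjusted p = 0.49). The LPS call was lost without LPS replicate 1 (0.36, adjusted p = 0.057) and without LPS replicate 3 (0.37, adjusted p = 0.052). That of octanal against untreated was lost without LPS with octanal replicate 2 (0.52, adjusted p = 0.059).

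Set against each other per length, as FPKM (the deposited values scaled by gene length and depth), Nfe2l2 exceeded its inhibitor Keap1 by 6.71, 5.14 and 9.22 times in untreated, 4.21, 6.41 and 5.28 times in LPS and 6.55, 7.23 and 8.19 times in octanal libraries. The octanal ratios were above every LPS ratio and within the untreated range. The ratio with octanal was 1.4 times that with LPS (exact permutation test over 3 against 3 libraries, two-sided p = 0.1, which is the smallest such a test can give). Adjusted by Benjamini-Hochberg over the 9 ratio tests made here, it was 0.30.

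Glutathione is the main thiol of the cell, and 4 of the genes serve its supply and recycling. Slc7a11 (ENSMUSG00000027737; chromosome 3, 49892526 to 50443614, minus strand, protein-coding) encodes xCT, the exchanger that takes up cystine, and was the gene of the set with the highest CPM. Its levels were 1117, 995 and 1661 CPM in untreated, 1135, 1676 and 1847 in LPS and 2150, 2976 and 2842 in octanal libraries. Untreated and LPS libraries overlapped almost wholly, and each octanal library lay above them. Against untreated cells it rose with LPS and octanal by 1.08 on the log2 scale (SE 0.264, adjusted p = 0.039), that is 2.11-fold. Against LPS the difference was 0.77 (SE 0.263, unadjusted p = 0.016, adjusted p = 0.14), and in LPS against untreated it was 0.30 (SE 0.261, adjusted p = 0.40). The call against untreated was kept without untreated replicate 3 (the highest untreated library) and without LPS replicate 1, and was lost without any of the other 7 libraries (0.92 to 1.22, adjusted p = 0.059 to 0.15). Here and below, a library outside a comparison bears on it only through the scaling, the filter and the fit shared by all groups.

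Slc3a2 encodes the heavy chain that carries xCT to the membrane. It went with LPS and octanal from 694 ± 70.0 CPM in untreated and 774 ± 99.3 in LPS to 1121 ± 160 (SD, n = 3 each). It rose against untreated by 0.69 (SE 0.160, adjusted p = 0.034), a call lost without each of 7 libraries, among them LPS with octanal replicate 2 (0.59, adjusted p = 0.15), and kept without untreated replicate 3 and LPS with octanal replicate 1. Slc7a11 had 0.318, 0.319 and 0.436 of its FPKM in untreated, 0.323, 0.457 and 0.415 in LPS and 0.452, 0.470 and 0.493 in octanal libraries, so the octanal ratios lay above the untreated ones without overlap (1.33 times, exact p = 0.1, adjusted p = 0.30).

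Gclc and Gclm encode the catalytic and the modifier subunit of glutamate-cysteine ligase, the rate-limiting enzyme of glutathione synthesis. Gclc (ENSMUSG00000032350; chromosome 9, 77754535 to 77794485, plus strand, protein-coding) stood at 265, 269 and 248 CPM in untreated, 316, 277 and 337 in LPS and 272, 340 and 319 in octanal libraries. Both treated groups lay above the untreated one, by small margins, and covered nearly the same range as each other. Its log2 fold changes in edgeR were 0.25 with LPS (SE 0.118, adjusted p = 0.13), 0.25 with LPS and octanal against untreated (SE 0.118, adjusted p = 0.21) and 0.00 between the treated groups (SE 0.117, adjusted p = 0.99). On log2 FPKM, limma-trend called the LPS difference of Gclc (0.34 with a pseudocount of 1, adjusted p = 0.044, and 0.35 with 0.1, adjusted p = 0.046). Gclm (ENSMUSG00000028124; chromosome 3, 122245557 to 122270732, plus strand, protein-coding) stood at 581, 384 and 435 CPM in untreated, 342, 443 and 468 in LPS and 553, 678 and 618 in octanal libraries. Untreated replicate 1 was as high as the octanal libraries, and LPS libraries lay below all of these. Its log2 fold change was 0.56 with octanal against LPS (SE 0.185, unadjusted p = 0.014, adjusted p = 0.13), -0.16 with LPS (SE 0.184, adjusted p = 0.53) and 0.40 with LPS and octanal against untreated (SE 0.184, adjusted p = 0.20).

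The ratio of the 2 subunits was lowest on average with LPS. Per length, Gclm was at 1.42, 0.909 and 1.16 of the FPKM of Gclc in untreated, 0.684, 1.02 and 0.913 in LPS and 1.33, 1.28 and 1.24 in octanal libraries. The octanal ratios were above all LPS ratios (1.49 times, exact permutation p = 0.1, adjusted p = 0.30) and within the untreated range.

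Gsr (ENSMUSG00000031584; chromosome 8, 33652523 to 33698163, plus strand, protein-coding) encodes glutathione reductase, which returns oxidised glutathione to its thiol form with NADPH. It stood at 289, 186 and 245 CPM in untreated, 226, 340 and 345 in LPS and 412, 586 and 534 in octanal libraries. The octanal libraries did not overlap either other group. Gsr rose with LPS and octanal against untreated by 1.09 on the log2 scale (SE 0.223, adjusted p = 0.022), with 0.75 against LPS (SE 0.221, unadjusted p = 0.0081, adjusted p = 0.11) and 0.34 for LPS alone (SE 0.220, adjusted p = 0.26). The call was lost without untreated replicate 3 (1.13, adjusted p = 0.051), LPS with octanal replicate 2 (0.97, adjusted p = 0.096) or replicate 3 (1.05, adjusted p = 0.064), and with the replicate number as a block (1.07, adjusted p = 0.051).

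The thioredoxin system is the other main thiol route. Txnrd1 (ENSMUSG00000020250; chromosome 10, 82833951 to 82897712, plus strand, protein-coding) encodes the cytosolic thioredoxin reductase, a selenoprotein. Its levels were 779, 575 and 610 CPM in untreated, 627, 822 and 942 in LPS and 925, 1326 and 1130 in octanal libraries. Every octanal library was above the untreated ones, and replicate 1 lay just below the highest LPS library. Txnrd1 rose with LPS and octanal against untreated by 0.78 (SE 0.206, adjusted p = 0.049), at the edge of the threshold, and each of the 9 libraries left out in turn ended this call (0.65 to 0.92, adjusted p = 0.053 to 0.17). The block by replicate number did so too (0.77, adjusted p = 0.093). In all, 6 of the 19 alternative fits, those with a library left out among the 19, kept the call. With octanal against LPS it was 0.50 (SE 0.205, unadjusted p = 0.038, adjusted p = 0.20) and with LPS alone 0.28 (SE 0.205, adjusted p = 0.31).

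Srxn1 (ENSMUSG00000032802; chromosome 2, 152105516 to 152111376, plus strand, protein-coding) encodes sulfiredoxin, which repairs overoxidised peroxiredoxins. It stood at 290, 200 and 213 CPM in untreated, 200, 297 and 338 in LPS and 318, 489 and 391 in octanal libraries. The octanal group lay above untreated and overlapped LPS. No difference of Srxn1 passed in edgeR. The log2 fold change was 0.77 with LPS and octanal against untreated (SE 0.236, adjusted p = 0.077; 0.78 and adjusted p = 0.018 in DESeq2, which called it), 0.52 against LPS (SE 0.235, adjusted p = 0.23) and 0.25 for LPS alone (SE 0.235, adjusted p = 0.44).

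Nqo1 and Abcc1 deal with the electrophiles themselves. Nqo1 (ENSMUSG00000003849; chromosome 8, 107388225 to 107403206, minus strand, protein-coding) encodes a quinone reductase that is the classic readout of NRF2 activity. Its levels were 25.8, 19.5 and 18.7 CPM in untreated, 28.9, 36.1 and 37.5 in LPS and 52.6, 57.3 and 55.1 in octanal libraries. The 3 groups formed 3 steps with no overlap. Nqo1 rose with LPS by 0.68 (SE 0.151, adjusted p = 0.012) and with LPS and octanal against untreated by 1.36 (SE 0.153, adjusted p = 0.0026), that is 2.58-fold. The second of these calls held without each of the 9 libraries and in all 19 alternative fits, and the first was lost without LPS replicate 2 (0.60, adjusted p = 0.055). Between the treated groups Nqo1 differed by 0.69 (SE 0.151, unadjusted p = 0.0014, adjusted p = 0.064), the smallest p of the 10 genes there. It was called without untreated replicate 1 (0.71, adjusted p = 0.049) or 2 (0.71, adjusted p = 0.045), which are not in this comparison, and in 3 other fits.

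Abcc1 (ENSMUSG00000023088; chromosome 16, 14361558 to 14475737, plus strand, protein-coding) encodes MRP1, the pump that exports glutathione conjugates. It stood at 352, 240 and 235 CPM in untreated, 343, 491 and 493 in LPS and 535, 620 and 642 in octanal libraries. Untreated replicate 1 and LPS replicate 1 were alike, and the octanal libraries were above all others. Abcc1 rose with LPS by 0.68 (SE 0.201, adjusted p = 0.031) and with LPS and octanal against untreated by 1.12 (SE 0.202, adjusted p = 0.015), with 0.44 between the treated groups (SE 0.200, adjusted p = 0.24). The LPS call was lost without untreated replicate 2 or 3, LPS replicate 2 or 3, or LPS with octanal replicate 2 or 3 (0.56 to 0.66, adjusted p = 0.052 to 0.13) and with the block (0.67, adjusted p = 0.067). In all, 11 of the 19 alternative fits kept it. The call of octanal against untreated was lost without LPS with octanal replicate 2 (1.09, adjusted p = 0.063).

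**Figure D3:**
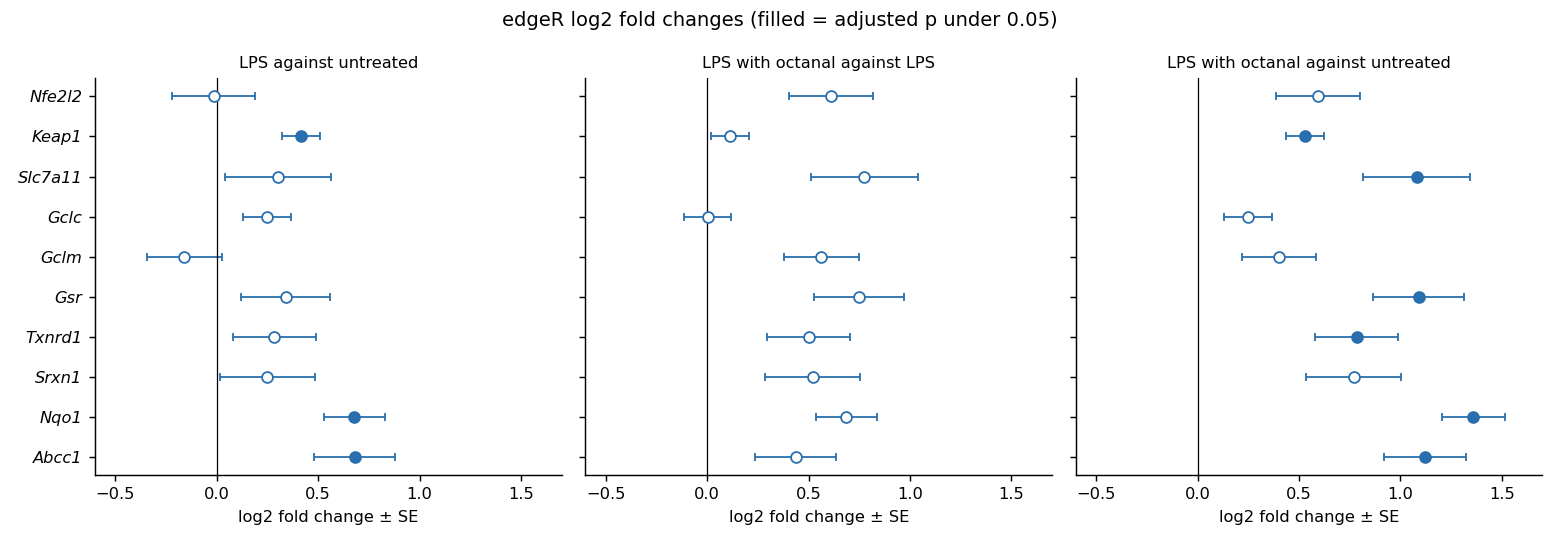
Log2 fold changes from edgeR (horizontal axis, bars are ± SE) of the 10 genes in the 3 comparisons; filled points passed an adjusted p of 0.05. Of the 10, 3 passed for LPS against untreated, 0 for LPS with octanal against LPS and 6 for LPS with octanal against untreated.

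LPS against untreated asks how the pathway responds to the bacterial signal. Nqo1, Keap1 and Abcc1 rose, 3 of 10, and 0 fell, with a median log2 fold change of 0.29 for the 10 genes against 0.01 for all genes tested. In this comparison edgeR called 32.8% of all 15447 genes, 15.2% as higher and 17.6% as lower, so 3 of 10 is close to the overall share of calls. Unadjusted, 3 of the 10 had a p under 0.05 and were higher (22.3% of all genes, with 22.8% lower), and 8 of the 10 changes were positive (50.7% of all). The groups did not overlap, with LPS higher, for Keap1, Nqo1 and Gclc, 3 of 10 against 26.7% of all genes, and for 0 of 10 with LPS lower, against 24.8%. Of all calls 46.4% were higher, and 58.9% with log2 FPKM (pseudocount 1), which shifted the median of all genes by 0.11. Only 1 of the 10 genes was called without LPS replicate 2 and only 1 without LPS replicate 3. Calls over all genes changed as well when a library was left out (range given below). The loss is therefore not read as particular to the 10 genes. LPS replicate 1 was the lowest LPS library for 8 of the 10 genes, all but Keap1 and Gclc.

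LPS with octanal against LPS sets the primed cells given octanal against the LPS cells. Octanal, time, solvent and LPS exposure cannot be told apart in it. Of the 10 genes 0 were called by edgeR, as were 0% of all genes tested. All 10 fold changes were positive (45.4% of all genes tested), with a median of 0.54 against -0.05 for all genes. Unadjusted, 6 of the 10 had a p under 0.05 and a higher level with octanal, which 13.6% of all genes tested had, and 0 were lower, against 8.69%. In 6 of the 10 the groups did not overlap, with octanal higher, as for 18.3% of all genes, and 0 of 10 were lower without overlap, against 19.9%. The DESeq2 Wald test called 5 of the 10, all higher, which were Nqo1, Gsr, Slc7a11, Gclm and Nfe2l2, beside 1792 of all genes. An edgeR fit of the 6 libraries of these groups alone called Nqo1 and Nfe2l2, beside 1380 of all genes, and limma-voom and limma-trend on log2 FPKM called 0 of both. Neutrophil markers differed in the same direction (median log2 fold change 1.95, 14 of 15 positive), as did classical monocyte markers (0.715, 8 of 13 positive), and T cell markers in the other (-0.67, 0 of 12 positive). Of the macrophage markers 5 of 15 were positive, with a median of -0.41 and 3 lower without overlap, while their sum was higher with octanal through abundant genes such as Gpnmb (523 and 1824 CPM on average) and Cd68 (211 and 455 CPM). Their part in the result was not tested.

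LPS with octanal against untreated compares the doubly treated cells with the cells that received DMSO. Octanal, time, solvent and LPS exposure cannot be told apart in it either. Nqo1, Abcc1, Gsr, Slc7a11, Txnrd1 and Keap1 rose, 6 of 10, and 0 fell, with a median of 0.78 against -0.01 for all genes tested. Here edgeR called 8.67% of all genes, 2.63% as higher and 6.03% as lower. Groups did not overlap, with the octanal group higher, for 9 of the 10 genes (all but Gclm), and for 13.5% of all genes, and lower for 0 of 10, against 16.3%. All 10 changes were positive (49.4% of all genes), and 8 of the 10 were higher at an unadjusted p under 0.05 (11.0% of all, with 16.4% lower). The count was 1 without LPS with octanal replicate 2, when Nqo1 alone was called, and 3 without LPS with octanal replicate 3. It was 2, Nqo1 and Abcc1, in a fit of the 6 libraries of these groups alone. Calls over all genes also varied when a library was left out and were fewer in the fit of 6 libraries, as given below. These lower counts are therefore not read as particular to the 10 genes. In the same comparison 12 of 15 macrophage markers had an unadjusted p under 0.05 and were lower, and neutrophil markers had a median of -1.69. T cell markers had positive changes, 12 of 12, with a median of 1.11 and 9 higher without overlap. The part of these lists in the result was not tested. This comparison shares the untreated libraries with the LPS comparison and the octanal libraries with the one before.

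The order of levels per length was nearly the same in the 3 groups. Txnrd1 led with 207 ± 30.2 FPKM in untreated, 279 ± 54.1 in LPS and 368 ± 72.2 in octanal libraries, above Slc7a11 in each group without overlap. Slc7a11 came next with 123, 165 and 264 FPKM on average. Between Slc7a11 and Gclc, in untreated and LPS libraries, each gene overlapped its neighbour in rank, so the order of neighbours was not set. Slc7a11 itself lay above Gclc without overlap in both groups. Keap1 and Nqo1 closed the order at 16.4 and 12.5 FPKM in untreated and 23.4 and 21.6 in LPS libraries. With octanal their places changed, to 24.0 for Keap1 and 32.5 for Nqo1, without overlap. The median SD of log2 CPM between replicates of the 10 genes was 0.30 in untreated, 0.27 in LPS and 0.16 in octanal libraries, against 0.31, 0.17 and 0.22 for all genes tested.

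The genes nearest to Nfe2l2 over the 9 libraries were not among the other 9. By the root mean square difference of log2 CPM, centred per gene, among 8852 genes with a mean of at least 10 CPM, the nearest was Ero1l, an oxidase of the endoplasmic reticulum, at 0.099. It averaged 132, 143 and 204 CPM across untreated, LPS and octanal libraries. Fdft1 (0.138), Hsd17b7 (0.139) and Insig1 (0.141) came next, of which Fdft1 and Hsd17b7 encode enzymes of cholesterol synthesis and Insig1 a regulator of it. Of the pathway genes Gclm came closest (0.225, with rank 82), then Slc7a11 (0.253) and Txnrd1 (0.259), and Nqo1 was farthest (0.411). This is a description of 9 libraries that form 3 groups.

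The partners and regulators of NRF2 were next. The 12 genes, all tested, were the small MAF genes Mafg, Mafk and Maff, the competing repressors Bach1 and Bach2, the degradation factors Cul3, Rbx1, Btrc and Gsk3b, the KEAP1-binding proteins Sqstm1 and Dpp3, and the related factor Nfe2l1. With LPS 3 rose and 0 fell, where 15.2% of all genes tested rose and 17.6% fell. The 3 were Nfe2l1 (log2 fold change 0.44, adjusted p = 0.0086), Bach2 (1.54, adjusted p = 0.022) and Sqstm1 (0.77, adjusted p = 0.025). Btrc had the next lowest p (0.28, adjusted p = 0.15). Against untreated, LPS with octanal brought 2 rises, of Nfe2l1 (0.80, adjusted p = 0.0026) and Sqstm1 (1.19, adjusted p = 0.015), and 0 falls. Among all genes tested 2.63% rose and 6.03% fell in that comparison. Maff (0.70, adjusted p = 0.060) and Mafg (0.49, adjusted p = 0.082) did not pass. Sqstm1 encodes p62, an autophagy receptor that takes KEAP1 away from NRF2, and went from 1633 ± 241 CPM in untreated to 2781 ± 334 in LPS and 3729 ± 733 in octanal libraries. With octanal against LPS 0 were called, as were 0% of all genes tested. At an unadjusted p under 0.05, 3 were higher (13.6% of all) and 0 lower (8.69%), and 10 of 12 changes were positive (45.4%). Nfe2l1 stood at 0.36 (adjusted p = 0.076), Mafg at 0.51 (adjusted p = 0.12), Bach1 at 0.41 (adjusted p = 0.18) and Maff at 0.43 (adjusted p = 0.24). Bach2 is a gene of lymphocytes as well, and T cell markers were higher in the same LPS libraries (12 of 12 called). Their part in the rise of Bach2 was not tested.

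A further list held 24 other genes known as NRF2 targets, all tested. In LPS against untreated 6 of them fell and 1 rose, where 17.6% of all genes tested fell and 15.2% rose, and their median log2 fold change was -0.39. Their difference from the 10 genes was not tested. The falls of lowest p were those of Ugdh (-1.46, adjusted p = 0.0016), the scavenger receptor Cd36 (-2.10, adjusted p = 0.0026), Tkt (-1.09, adjusted p = 0.0071) and Akr1b8 (-1.32, adjusted p = 0.019). G6pdx (-0.88) and Pgd (-0.80) also fell, and with Tkt they encode enzymes of the pentose phosphate pathway, of which those of G6pdx and Pgd make NADPH. Cbr1, a carbonyl reductase, rose (0.65, adjusted p = 0.025). Hmox1, the heme oxygenase often used as an NRF2 readout, stood at 1814 ± 680, 1689 ± 292 and 1923 ± 228 CPM across untreated, LPS and octanal libraries. Its groups overlapped in each pair. Myeloid markers were lower in the same LPS libraries (13 of 15 neutrophil and 9 of 15 macrophage markers fell), and Cd36 is a macrophage gene as well; their part was not tested.

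With octanal against LPS the same list of 24 had 19 positive changes (45.4% of all genes tested) and a median of 0.52. This was close to the 0.54 of the 10 genes. None was called by edgeR, and 12 had an unadjusted p under 0.05 in the higher direction and 1, the epoxide hydrolase gene Ephx1 (-0.555), in the lower. Among all genes tested 0% were called, and 13.6% were higher and 8.69% lower at that p. Pgd went from 868 ± 163 to 1569 ± 225 CPM (0.85, adjusted p = 0.083), which was near its untreated level of 1511 ± 329. Tkt (0.73), Pir (0.82) and the glutathione transferase gene Gstm1 (1.09) followed, with adjusted p of 0.11, 0.12 and 0.12. The ferritin genes Fth1 and Ftl1, subunits of the iron store, went from 8282 ± 2382 to 15717 ± 2765 and from 7301 ± 2231 to 13061 ± 1842 CPM, with untreated levels of 13035 ± 2649 and 11355 ± 1615. Ferritin and Gstm genes have near-identical copies, which makes these values uncertain. Against untreated, LPS with octanal left a median of 0.07, with 0 rises and 2 falls, against 2.63% and 6.03% of all genes. The falls were those of Cd36 (-1.79, adjusted p = 0.015) and Ugdh (-0.92, adjusted p = 0.025). Gstm1 (0.72, adjusted p = 0.20) and Pir (0.49, adjusted p = 0.23) had the next lowest p.

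**Figure D4:**
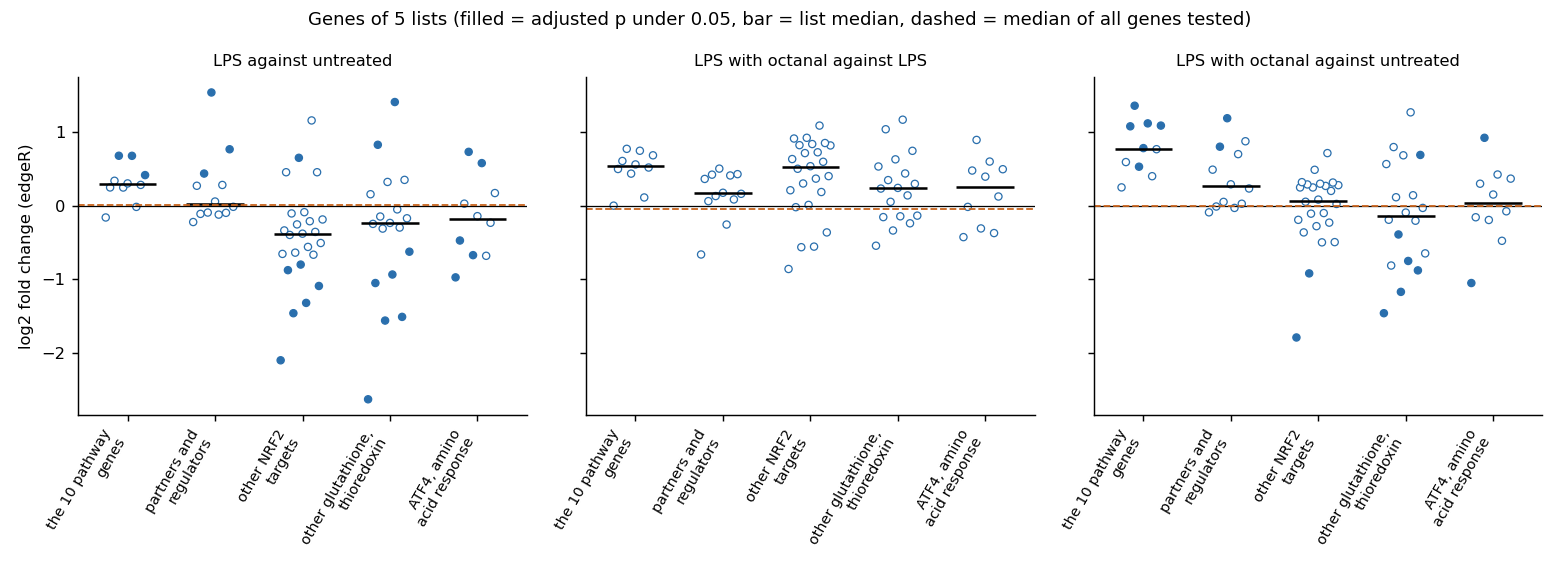
Log2 fold changes from edgeR (vertical axis) of single genes in 5 lists and 3 comparisons; filled points passed an adjusted p of 0.05, bars are list medians and the dashed line is the median of all genes tested. In LPS against untreated the median of the 10 pathway genes is 0.29 and that of 24 other NRF2 targets -0.39, whereas with octanal against LPS they are 0.54 and 0.52.

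Of 18 further genes of glutathione and thioredoxin metabolism, all tested, 6 fell and 2 rose with LPS, against 17.6% and 15.2% of all genes. The falls were those of the peroxidase genes Gpx1 (-1.51, adjusted p = 0.0019) and Gpx4 (-0.62, adjusted p = 0.0032), Mgst1 (-2.63, adjusted p = 0.0022), the glutaredoxin gene Glrx (-1.56, adjusted p = 0.0022), the mitochondrial reductase gene Txnrd2 (-1.05) and Prdx4 (-0.93). Ggt1 (1.41) and Txnip (0.83), an inhibitor of thioredoxin, rose. The mitochondrial Txnrd2 thus fell in the comparison in which cytosolic Txnrd1 had a log2 fold change of 0.28 and was not called. Against untreated, LPS with octanal brought 5 falls, Prdx4 (-1.17, adjusted p = 0.024), Gpx1 (-0.88, adjusted p = 0.036), Mgst1 (-1.46, adjusted p = 0.042), Txnrd2 and Gpx4, and 1 rise, that of Slc3a2. Among all genes tested 6.03% fell and 2.63% rose there. With octanal against LPS 0 were called, as were 0% of all genes tested, and the median was 0.24. At an unadjusted p under 0.05, 6 were higher (13.6% of all) and 1 lower (8.69%). Prdx5 (1.04, adjusted p = 0.067), Glrx (0.75, adjusted p = 0.11), Slc3a2 (0.53, adjusted p = 0.11) and Mgst1 (1.17, adjusted p = 0.12) had the lowest p.

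Over these lists of 12, 24 and 18 genes and the 10 tested for ATF4, 23 genes were called in LPS against untreated. Of all genes tested 32.8% were called there. Without each of the 9 libraries, 8 of the 23 kept the call, namely Cd36, Tkt, Ugdh, Mgst1, Glrx, Gpx1, Txnrd2 and Gpx4. In LPS with octanal against untreated 12 were called, against 8.67% of all genes tested, and 2 of the 12 kept the call, Nfe2l1 and Cebpb. No fold change of a called gene turned its sign. The share of all called genes that kept their calls is not given here, so these counts are not read as particular to the lists. Sqstm1 lost its call in LPS with octanal against untreated without LPS with octanal replicate 2 alone (adjusted p = 0.073) and its LPS call without each of 6 libraries. Nfe2l1 lost its LPS call without LPS replicate 2 or 3 (adjusted p up to 0.059), and Bach2 without untreated replicate 3 or LPS replicate 1 or 3 (up to 0.070). Without LPS replicate 1 the LPS calls of Pgd, G6pdx, Akr1b8, Cbr1 and Txnip were lost, and without LPS replicate 2 those of G6pdx, Akr1b8, Cbr1, Txnip, Ggt1 and Prdx4. LPS replicate 3 bore on Pgd, Ggt1 and Prdx4, untreated replicate 1 on Pgd, G6pdx, Akr1b8, Ggt1 and Txnip, untreated replicate 2 on Cbr1, and untreated replicate 3 on Pgd, G6pdx and Cbr1. Txnip was also lost without each octanal library, although these libraries are not in that comparison and bear on it only through the shared fit. Against untreated, Cd36, Ugdh and Prdx4 were lost without LPS with octanal replicate 2, Ugdh and Prdx4 without replicate 3 and Ugdh without replicate 1. There Mgst1, Gpx1 and Gpx4 kept the call without untreated replicate 2 alone, and Txnrd2 without untreated replicate 3 alone.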

How the data were processed

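The authors deposited a whole-number count per gene and library, without normalization, and FPKM values, which allow for gene length and depth, per the file headers. GRCm38 is the build named by the submitters' processing notes. Not given in the sources used here are the aligner, the counting tool and whether strand was used. There were 10 lines of text without values, which were left out.

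The test was that of edgeR 4.0.16 under R 4.3.3: filterByExpr by group (15447 genes left), TMM factors (0.923 to 1.07), 1 quasi-likelihood fit over the 9 libraries with group as the factor, and Benjamini-Hochberg adjustment over all genes tested. Genes under 0.05 were called. SE is the log2 fold change over the root of F. Unless another tool is named, adjusted p are those of this edgeR test. Group values are mean ± SD over 3 libraries. Gene positions are those of GENCODE M21. Chi-square per degree of freedom between replicates was 42.9 to 142, where counting noise alone gives about 1. The fit was also run on simulated counts in which few genes differed between groups, unlike in these data. That run is not used as support for the results.

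The 10 genes, the lists and the rule for named genes (all 10 genes; up to 4 of lowest p per list and comparison; 5 nearest to Nfe2l2, of which 1 is not reported here) were chosen with earlier results of these data known. Where more list genes are named, they were picked after their values were seen. Alternatives used DESeq2 1.42.0 and limma 3.58.1 (voom on counts, and limma-trend on log2 FPKM with a pseudocount of 1 or 0.1).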

Additional observations from a re-analysis of the deposited data

How the results depend on the processing

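Of 190 alternative values per comparison for the 10 genes, 6 turned the sign in LPS against untreated, 6 in LPS with octanal against LPS and 0 in LPS with octanal against untreated. They belonged to Nfe2l2 in the first and Gclc in the second, whose fold changes were near 0. Nfe2l2 went to 0.0224 with limma-voom, 0.124 and 0.125 with log2 FPKM (pseudocounts 1 and 0.1), 0.00596 with a replicate block and -0.254 to 0.188 with a library left out. Gclc went to -0.0129 with a filter at 10 CPM, -0.0939 and -0.0949 with log2 FPKM, -0.000324 with a replicate block and -0.0498 to 0.125 with a library left out. The cause was not tested.

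In LPS with octanal against LPS, where edgeR called 0 of the 10 and 0 of all genes, the counts were 1 and 344 with a filter at 10 CPM, 5 and 1792 with DESeq2, 2 and 1380 in a fit of these 6 libraries, 0 and 279 without a filter, and 0 and 118 without NewGene loci. In LPS with octanal against untreated (6 of the 10, 1339 of all) they were 2 and 404 with 6 libraries, and DESeq2 called 7 and 2810, with Srxn1 added. In LPS against untreated log2 FPKM called 4 of the 10, with Gclc added. With a library left out, 1 to 3 of the 10 and 2387 to 5658 of all genes were called in LPS against untreated (3 and 5072 with all libraries), 0 to 1 and 0 to 584 in LPS with octanal against LPS, and 1 to 5 and 298 to 2137 in LPS with octanal against untreated.

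Same-numbered libraries of different groups correlated by -0.0898 to 0.179 in their deviations from group means, other pairs by -0.149 to 0.208, and in 3 of 18 checks a library correlated best with its own number, so the numbers were not taken to pair the libraries. With a replicate block 2, 0 and 4 of the 10 genes and 4257, 0 and 923 of all genes were called in the 3 comparisons, in the order above.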

Other observations

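Slc7a11 also belongs to the genes that the factor ATF4 switches on when amino acids run short, so 10 genes of that response were read as well. Atf4 itself stood at log2 fold changes of 0.17 with LPS (adjusted p = 0.32), 0.13 with octanal against LPS (adjusted p = 0.58) and 0.30 with LPS and octanal against untreated (adjusted p = 0.17). With LPS, the amino acid transporter gene Slc7a5 (0.58, adjusted p = 0.013) and Trib3 (0.73, adjusted p = 0.016) rose, and Chac1 (-0.67, adjusted p = 0.026), Phgdh (-0.97, adjusted p = 0.034) and Sesn2 (-0.47, adjusted p = 0.045) fell, with a median of -0.19 for the list. Among all genes tested 15.2% rose and 17.6% fell. Chac1 encodes an enzyme that breaks glutathione down. Each of these 5 calls was lost without LPS replicate 1, Sesn2 without each of 7 libraries. Untreated replicate 3 bore on Chac1, Trib3, Phgdh and Sesn2, untreated replicate 1 on Trib3 and Phgdh, and LPS replicate 2 on Chac1, Phgdh and Sesn2.

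Cebpb, a partner of ATF4 and a factor of myeloid activation, rose with LPS and octanal against untreated (0.92, adjusted p = 0.013) and Psat1, an enzyme of serine synthesis, fell (-1.05, adjusted p = 0.032), a call lost without untreated replicate 1, LPS replicate 3 or LPS with octanal replicate 2 or 3. Cebpb averaged 271 ± 20.6 CPM in untreated, 276 ± 21.0 in LPS and 513 ± 110 in octanal libraries, and its change with octanal against LPS was 0.90 (adjusted p = 0.054). There 0 of the 10 were called, as were 0% of all genes tested. At an unadjusted p under 0.05, 4 were higher (13.6% of all) and 1 lower (8.69%). Asns (0.60, adjusted p = 0.12), Slc7a5 (-0.43, adjusted p = 0.12), Sesn2 (0.40, adjusted p = 0.18) and Chac1 (0.48, adjusted p = 0.18) had the next lowest p. The list thus had changes of both signs in each comparison.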
